A study of Mus musculus with 4 samples.

Results

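The nuclei described here carried transcripts of both *Prox1* and *Zbtb20* and numbered 263 of the 29656 retained nuclei (0.887%) from the medial cortex of mouse embryos. They were chosen from raw counts by a rule. A barcode was retained with 1500 to 60000 transcripts, and a retained nucleus was selected with at least 3 *Prox1* and at least 10 *Zbtb20* transcripts, no *Gad1* or *Gad2* transcript (GABA synthesis), at most 2 of *Slc1a3* (glial glutamate transporter), at most 1 of *Mki67* and *Top2a* together (cell cycle), none of *Olig1* or *Olig2* (oligodendrocyte lineage) and at most 1 of *Flt1* (endothelium). The selected nuclei are called Prox1+ Zbtb20+ nuclei. Since their *Prox1* and *Zbtb20* counts chose them, every comparison of their levels with those of the remaining 29393 is a description without a test. Only the difference between genotypes was tested against that of the remaining nuclei.

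PROX1 is a homeodomain transcription factor that marks granule cells of the dentate gyrus from their birth onward and is also made by other neurons, among them many cortical interneurons. ZBTB20 is a zinc finger repressor of hippocampal progenitors and of newborn pyramidal and granule neurons. Granule neurons arise next to the cortical hem, a medial source of Wnt and R-spondin signals, and pass from radial glia through intermediate progenitors with EOMES to postmitotic cells with NEUROD1. Mature granule cells later make calbindin (*Calb1*), C1QL2 and TDO2.

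Nuclear RNA of E16.5 medial cortex was measured by single-nucleus RNA sequencing with split-pool barcoding, in which fixed nuclei collect their barcodes in successive rounds of wells. The control embryos carried *Sst-Cre* and a Cre-dependent tdTomato reporter. The Dnmt1 KO embryos carried both of these and loxP-flanked *Dnmt1* (labelled Dnmt1 loxP2), so that Cre deletes the gene in postmitotic cells that express *Sst*. There were 2 libraries per genotype, and the comparison asks whether nuclei outside the interneuron lineage differ between the genotypes. The libraries of a genotype came from 2 brains of 2 mice.

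Several facts of the libraries bear on all results. The labels put control 2 into batch 2 with 2 sublibraries and the other 3 libraries into batch 1 with 8. Median depth of the Prox1+ Zbtb20+ nuclei was 13752 transcripts in Dnmt1 KO 1, 13344 in Dnmt1 KO 2, 13145 in control 1 and 23740 in control 2, so the batch 2 control was the deepest. *Xist* and the Y-linked *Uty* marked both libraries with replicate number 1 as female and both with number 2 as male, so that replicate number and sex cannot be told apart. No barcode was shared between libraries. Of the 263 nuclei, 11 were called doublets, and these nuclei came from nearly every first-round well (from 5 of 5, 4 of 4, 5 of 5 and 11 of 12 wells).

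The selected nuclei had a median of 6 *Prox1* transcripts (highest 64) and of 148 *Zbtb20* transcripts (10 to 670). In their summed counts, given as counts per 1000000 transcripts of the same nuclei (CPM), *Prox1* (chr1:189850232-189904637, minus strand, GRCm39) stood at 545 in Dnmt1 KO 1, 588 in Dnmt1 KO 2, 607 in control 1 and 626 in control 2. *Zbtb20* (chr16:42696093-43462965, plus strand) stood at 10473, 11123, 11277 and 10992 CPM in the same order, which is used throughout. Both genes were at nearly one level in all 4 libraries. The *Zbtb20* threshold was seldom the deciding one, since 8 members had 10 to 19 transcripts and 13 nuclei were left out by it alone. The *Prox1* threshold decided more: 65 members had exactly 3 transcripts, while 148 nuclei with 2 and 305 with 1 stood just outside. Across this edge *Eomes* was at 275 CPM in the members with 3 *Prox1* transcripts, at 190 in the nuclei with 2 and at 49.7 in those with none, and *Rmst*, a long noncoding RNA of neurogenesis, was at 2738, 2104 and 292. In both genes the nuclei just outside were closer to those just inside than to *Prox1*-free nuclei. *Rerg*, a Ras-related GTPase gene, went the other way with 27.6, 52.4 and 70 CPM. *Grik4*, a kainate receptor subunit gene, stood at 100.9, 141 and 135.4. *Neurod1* stood at 59.4, 77.4 and 48.6, the members with 3 *Prox1* transcripts thus below the nuclei just outside. The genes did not all follow the same order at this edge.

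Before the exclusions, 1150 nuclei passed both thresholds. Of these, 677 had too much *Slc1a3*, 386 had cell-cycle transcripts and 271 had *Gad1* or *Gad2*, while the oligodendrocyte and the endothelial criterion each touched 9. Most nuclei with both transcription factors were thus left out for glial or cell-cycle transcripts.

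**Figure D1:**
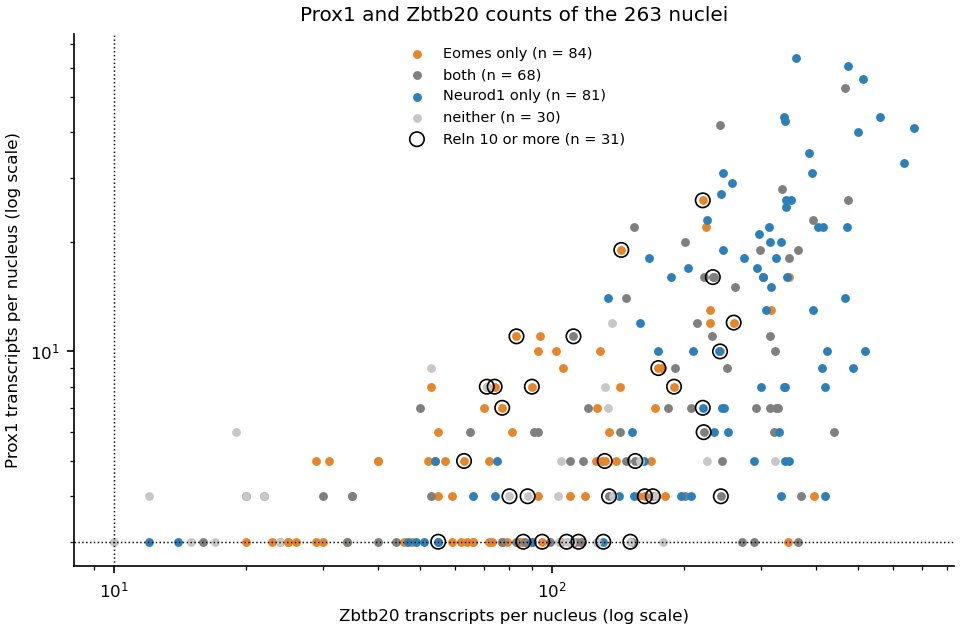
*Zbtb20* (x axis) and *Prox1* (y axis) transcripts of each of the 263 nuclei, both on log scales, coloured by whether the nucleus held *Eomes*, *Neurod1*, both or neither, with rings around the 31 nuclei with at least 10 *Reln* transcripts and dotted lines at the thresholds of 10 and 3. The highest *Prox1* counts lie mostly with *Neurod1*-only nuclei, and many *Eomes*-only nuclei sit at the lower edge.

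Of the genes that mark a granule lineage, the nuclei held *Neurod1* and *Eomes*, while *C1ql2*, *Tdo2* and *Calb1* of mature cells were at or near 0. *Neurod1*, the transcription factor of newborn granule neurons, stood at 114, 146, 162 and 188 CPM and at a mean of 20.3 in the other retained nuclei. *Eomes*, the T-box factor of intermediate progenitors, stood at 171, 105, 140.0 and 149.8 CPM against 32.5. Both were higher than in the other nuclei in every library. A transcript of *Eomes* was found in 65.4%, 52.0%, 63.0% and 57.6% of the nuclei and one of *Neurod1* in 44.9%, 58.4%, 66.7% and 69.7%. In inhibitory nuclei (at least 5 *Gad1* and *Gad2* transcripts, median depth 10097 to 17666), which should lack both genes, the shares were 4.18% to 11.7% and 5.67% to 7.48%. After thinning each nucleus to 10000 transcripts, *Eomes* was found in 61.3%, 37.6%, 35.0% and 48.5% and *Neurod1* in 45.2%, 53.8%, 75.0% and 48.5% of the 62, 93, 20 and 33 nuclei deep enough, so both remained well above the inhibitory nuclei. *C1ql2* and *Tdo2* had no transcript in any of the 263 nuclei, which allows a share of nuclei with a transcript of up to 1.14%, and *Calb1* had 1 transcript in 1 nucleus. Of the 13 granule cell genes listed beside *Prox1* and *Zbtb20*, 2 (*Neurod1* and *Sema5a*) were higher than in the other nuclei in all 4 libraries, while 4 (*C1ql2*, *Tdo2*, *Calb1*, *Maml2*) were higher in none. Of all 3730 genes at 50 CPM or more, 34.9% were higher in all 4 libraries and 20.2% lower in all 4. Of 11 newborn neuron and intermediate progenitor genes 4 (*Eomes*, *Neurog2*, *Neurod4*, *Igfbpl1*) were higher and 2 lower in all 4 libraries.

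The gene with the largest excess over the other nuclei, outside the rule, was *Synpr* (chr14:8853423-9184986, minus strand), which encodes the synaptic vesicle protein synaptoporin. It stood at 332, 636, 593 and 905 CPM against 44.6 in the other nuclei, 12.5-fold higher with 5 CPM added to both. *Rerg* (chr6:137031817-137147495, minus strand) reached the same ratio of 12.5 with 254, 333, 500.1 and 304 CPM against 23.3. Neither gene overlapped another protein-coding gene in the annotation. *Calb2*, the calcium-binding protein calretinin of immature granule cells and of Cajal-Retzius cells, stood at 27.2, 60.6, 55.6 and 145 CPM against 3.20 (9.40-fold), and *Stat3*, a cytokine-responsive transcription factor, at 203, 222, 200.0 and 235 against 21.5 (8.30-fold). *Stat3* was thus almost level between libraries, whereas *Calb2* was lowest in Dnmt1 KO 1 and highest in control 2.

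Other genes among the 25 with the largest excess had various roles. *Pcdh15*, a protocadherin, stood at a mean of 1938 ± 383 CPM (SD, n = 4 libraries) against 259 (7.36-fold), and *Grik4*, a kainate receptor subunit also known from CA3 pyramidal neurons, at 462 ± 87.8 against 59.0 (7.30-fold). *Slc1a2*, the glutamate transporter GLT-1, stood at 681 ± 106 against 87.1 (7.45-fold), although the rule had limited the other glial transporter, *Slc1a3*. *Cntnap5a*, *Gfra2* (a neurturin receptor), *Kcnk1* (a potassium channel), *Col12a1*, *Nell1*, *Ntn1* (the guidance cue netrin-1) and *Tmem132c* followed with 5.83 to 6.87-fold. Of transcription regulators, *Dpf3*, a subunit of a chromatin remodelling complex, was 7.29-fold higher, and *Lhx9*, a LIM homeodomain factor, 5.95-fold with 134, 106, 109 and 96.4 CPM against 14.6. *Prox1os*, the antisense RNA that overlaps *Prox1*, was 7.51-fold higher, but without a stated strand setting its reads and those of *Prox1* cannot be told apart.

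Genes far below the other nuclei included several of interneurons, which the rule had left out through *Gad1* and *Gad2*, with *Dlx6os1* at 3.91 CPM against 211, *Erbb4* at 87.3 against 1659, *Adarb2* at 20.7 against 445 and *Nxph1* at 32.8 against 569.9. Others, which were higher in the other excitatory nuclei, included *Opcml* at 268, 453, 300.0 and 243 CPM against 4369 (13.6-fold lower), *Ldb2* at 56.1, 79.6, 57.8 and 17.4 against 644 (11.2-fold lower) and *Runx1t1* at 109, 188, 142 and 107 against 1574 (11.2-fold lower). All 3 were low in every library, *Runx1t1* encoding a transcriptional corepressor and *Opcml* an adhesion molecule. *Tafa1*, a secreted protein gene, stood at 9.99 CPM against 336, with 208 in other excitatory and 132 in inhibitory nuclei, and the noncoding *6530403H02Rik* at 2.79 against 116.

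Neocortical layer genes were low as a group. Of 8 upper-layer genes 7 were below the other nuclei in all 4 libraries and 1 (*Mdga1*, an adhesion molecule) above, with a median log2 ratio of -1.41, and of 9 deep-layer genes 7 were below in all 4 and none above, with a median of -1.46, beside a median of 0.09 over all genes at 50 CPM. *Sox5*, a factor of deep-layer neurons, stood at 781, 927, 562 and 713 CPM against 3391 and was below the other nuclei in every library. Among 7 general excitatory genes, *Emx1*, *Rbfox3* and *Slc17a6* (vesicular glutamate transporter 2) were higher in 4 of 4 libraries, and *Neurod2*, *Neurod6*, *Slc17a7* (vesicular glutamate transporter 1) and *Bcl11a* were lower in 4 of 4. *Rbfox3*, the neuronal nuclear antigen NeuN, stood at 2872, 1670.3, 1689 and 2241 CPM against 608. *Emx1*, a factor of the dorsal telencephalon, stood at 164, 104, 107 and 121 against 37.8. Of 9 Ammon horn pyramidal genes, *Grik4* was higher in 4 of 4 libraries, and 4 were lower in 4 of 4, among them *Spock1* and *Nectin3*.

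Genes of the Wnt pathway, the hippocampal inducer that comes from the hem, were divided. Of 17 listed genes 8 were higher and 5 lower than in the other nuclei in 4 of 4 libraries, beside 34.9% and 20.2% of all genes. *Lef1*, the transcription factor that Wnt signals act through, stood at 314, 230.1, 136 and 172 CPM against 74.6, and *Axin2*, *Nkd1*, *Znrf3* and *Rnf43*, targets that feed back on the pathway, were higher in all 4 too, as were *Lrp5*, *Ctnnb1* (beta-catenin) and *Fzd3*. Ligands were mixed: *Wnt5a* stood at 173, 93.0, 80.0 and 134 CPM against 17.1, while *Wnt7a* and *Wnt7b* were lower in 4 of 4 libraries. *Cxcr4*, the chemokine receptor that guides dentate precursors, was low in absolute terms with 22.9, 10.8, 20.002 and 8.13 CPM and still above the 4.99 of the other nuclei. *Lrp8*, a reelin receptor, stood at 748, 627, 773 and 664 CPM against 301, and the other one, *Vldlr*, at 5.95, 27.2, 20.002 and 17.4 against 43.0.

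Glutamate receptor genes were mostly lower, with a median log2 ratio of -0.45. Of 21 genes, *Gria1*, *Grik2* and *Grik4* were higher in 4 of 4 libraries and 12 were lower, beside 34.9% and 20.2% of all genes. *Gria1*, an AMPA receptor subunit, stood at 839, 1627, 1547 and 1753 CPM against 809.7, and *Grik2*, a kainate receptor subunit, at 3689, 3787, 2840.3 and 2982 against 1590.2. Of 8 neuronal maturation genes 6 were lower in 4 of 4 libraries and *Camk2b* alone was higher. Axon guidance genes were divided, with 8 of 25 higher and 10 lower in all 4 beside 34.9% and 20.2% of all genes. The netrin receptor gene *Dcc* was the most abundant with 27568, 12580.3, 10504 and 8471 CPM against 4485. *Dcc* was far higher in Dnmt1 KO 1 than in any other library.

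Nuclei that passed the same *Zbtb20* minimum and exclusions but had no *Prox1* transcript numbered 4870. Against them, 30.7% of 3670 genes were higher and 18.6% lower in all 4 libraries. *Adamts19*, a secreted protease, differed most in favour of the Prox1+ Zbtb20+ nuclei, with 185, 231, 213 and 129 CPM against 7.48 (15.6-fold), followed by *Prox1os*, *Col19a1* (10.4-fold) and *Gsg1l*, an AMPA receptor auxiliary subunit (8.72-fold). *Htr2c*, a serotonin receptor, was 17-fold lower with 1.02 against 97.5 CPM, *Epha6*, an ephrin receptor, 10.8-fold lower, and *Ndnf*, a secreted protein of Cajal-Retzius cells, 10.2-fold lower with 1.88 against 65.0. *Opcml* and *Runx1t1* were 16.6-fold and 10.4-fold lower in this comparison too. *Zbtb20* itself stood at 3774 CPM in the comparison set, 2.90-fold below the members, so the sets were not matched in it.

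Against 3779 other excitatory nuclei (no *Prox1*, at most 2 *Zbtb20* and at least 3 *Neurod2* and *Neurod6* transcripts), 52.6% of 3705 genes were higher in all 4 libraries and 19.4% lower. *Dach1*, a regulator of progenitors, stood at 1487 ± 595 CPM against 5.81 (138-fold), *Rmst* at 1978 ± 908 against 11.7 (119-fold) and *Synpr* at 617 ± 234 against 2.79 (79.8-fold). *Chd7*, a chromatin remodeller needed in adult neurogenesis, was 45.7-fold and *Sox6*, a SOX factor of progenitors, 42.5-fold higher. *Opcml*, *Ldb2*, *Runx1t1*, *Arpp21* and *Kirrel3* were 12.8 to 22.3-fold lower.

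**Figure D2:**
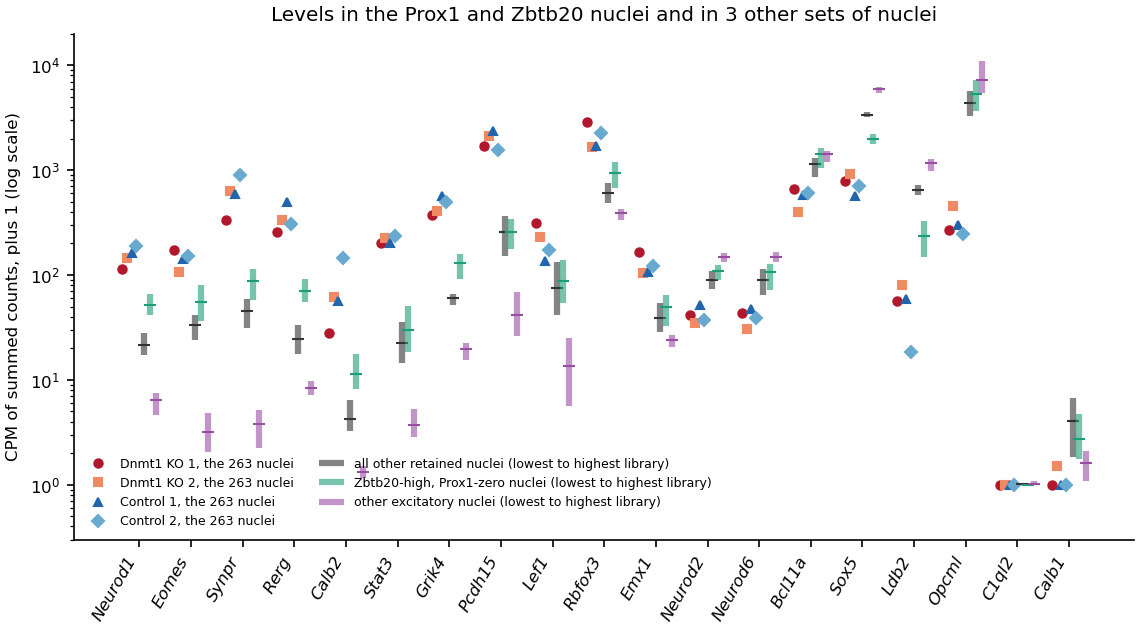
Levels of 19 genes in the summed counts of the Prox1+ Zbtb20+ nuclei, 1 symbol per library, beside the lowest, mean and highest library (bars with a tick) of 3 other sets of nuclei, as CPM plus 1 on a log scale. *Synpr*, *Rerg* and *Grik4* lie above every other set in all 4 libraries, *Opcml* and *Ldb2* below, and *C1ql2* has no transcript in the members.

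The 263 nuclei were not uniform. By detection of *Eomes* and *Neurod1* (a division made after the data were seen), 84 nuclei held *Eomes* only, 68 both, 81 *Neurod1* only and 30 neither. The *Eomes*-only nuclei made up 46.2%, 25.6%, 29.6% and 24.2% of the members of Dnmt1 KO 1, Dnmt1 KO 2, control 1 and control 2, and the *Neurod1*-only nuclei 25.6%, 32%, 33.3% and 36.4%. Dnmt1 KO 1 alone held more of the first than of the second. The *Neurod1*-only nuclei were deeper, with median transcripts of 20293.5, 17110.5, 19618 and 33556 against 12557, 9668.5, 8902.5 and 16586, and they held more *Prox1*, with medians of 8.5, 10, 9 and 36.5 transcripts against 5, 5, 3 and 4.5. Depth alone raises the chance of detecting a gene, and its part in the division was not tested.

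Between these ends many genes differed in level, described here without a test since the nuclei were divided by expression. Of 3974 genes at 50 CPM or more, 19.4% were higher in *Neurod1*-only nuclei in all 4 libraries and 30.9% in *Eomes*-only nuclei. Several progenitor genes were higher at the *Eomes* end. *Pax6*, the factor of radial glia and dentate precursors, stood at 103 CPM in *Eomes*-only nuclei, at 65.1 in nuclei with both and at 19.4 in *Neurod1*-only nuclei, pooled over libraries. The long noncoding RNA *Sox2ot* stood at 788, 73.7 and 36.4, although in control 2 both ends were level with 20.2 and 19.7. *Gli2*, the hedgehog effector, stood at 388, 159 and 24.7, and *Prdm16*, a radial glia regulator, at 216, 68.2 and 2.35. *Neurog2*, the proneural factor of intermediate progenitors, followed the same order with 47.7, 25.1 and 7.05, and *Sox6* with 1765, 706 and 69.3. In each of these genes the nuclei with both transcripts lay in between.

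Neuronal genes went both ways. *Rbfox3* stood at 2557 CPM in *Eomes*-only and 1740.1 in *Neurod1*-only nuclei, *Slc17a6* at 273 and 106 and the guidance receptor gene *Robo2* at 2027 and 325, pooled over libraries. In control 1 these 3 genes stood the other way round, with *Rbfox3* at 1631 and 1795, *Slc17a6* at 49.8 and 180.0 and *Robo2* at 386 and 759.9. Others were higher at the *Neurod1* end. *Zfp385b*, a zinc finger gene, stood at 19.8 CPM in *Eomes*-only nuclei, 447 in nuclei with both and 1232 in *Neurod1*-only nuclei, and *Slit3*, a guidance ligand, at 146, 1199 and 4442. *Camk2b*, a synaptic kinase subunit, stood at 45, 236 and 776, *Gabbr2*, a GABA-B receptor subunit, at 29.7, 282 and 663, and *Stmn2*, a neurite growth protein, at 45, 166 and 284. Several genes that set the whole group apart were unevenly held: *Rerg* stood at 44.1, 186 and 654 CPM, *Grik4* at 117, 237 and 846 and *Calb2* at 9.90, 34.5 and 143, whereas *Synpr* was already at 258 in *Eomes*-only nuclei and at 723 and 805 in the others. *Sema5a*, a semaphorin of the granule cell list, stood at 718, 634 and 1519, but in control 1 at 3374 in *Eomes*-only and 1069.8 in *Neurod1*-only nuclei. *Zbtb20* itself was highest at the *Neurod1* end with 8223, 10439.9 and 13522 CPM, and *Prox1* likewise with 466, 494 and 770.

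**Figure D3:**
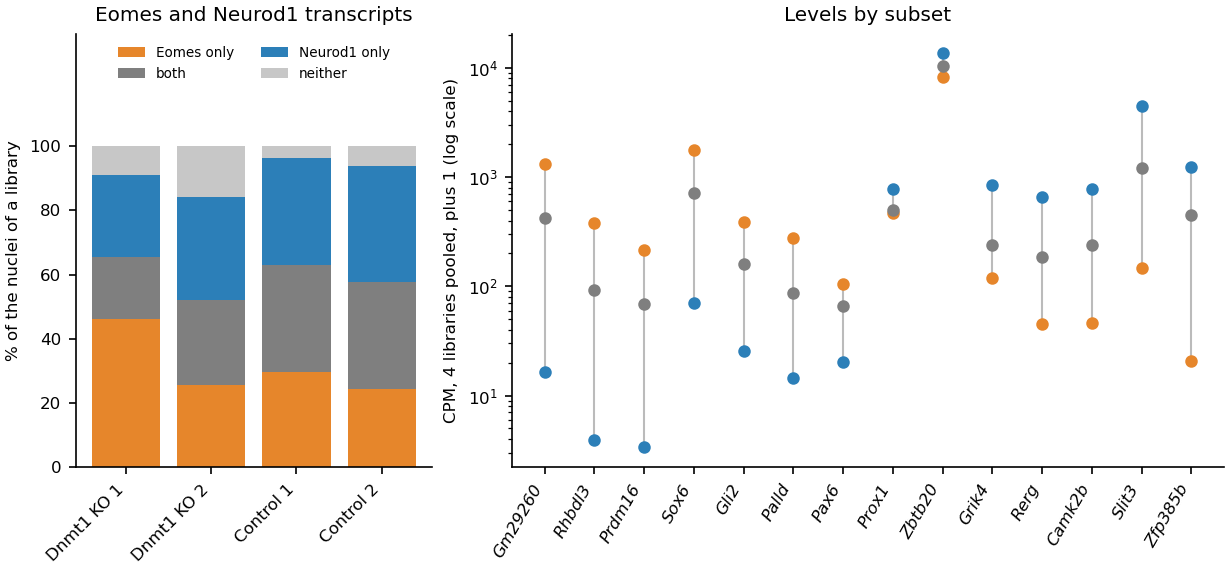
Left, the share of each library's Prox1+ Zbtb20+ nuclei with *Eomes* only, *Neurod1* only, both or neither. Right, CPM plus 1 on a log scale of 14 genes in the 3 subsets with either transcript, 4 libraries pooled. Dnmt1 KO 1 holds 46.2% *Eomes*-only nuclei, and the right panel orders genes from the *Eomes* to the *Neurod1* end with the nuclei holding both in between.

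A minority carried *Reln*, the extracellular protein of Cajal-Retzius cells that orders migrating neurons. With a limit of 10 *Reln* transcripts, chosen after the data were seen, 31 members were *Reln*-high, of which 12 were in Dnmt1 KO 1, 14 in Dnmt1 KO 2, 2 in control 1 and 3 in control 2 (15.4%, 11.2%, 7.41% and 9.09% of the members). They held 93.5% to 98.9% of all *Reln* transcripts of the members. *Trp73*, a p53 family gene that defines hem-derived Cajal-Retzius cells, was found in 10 of them and stood at 388 CPM against 0.8 in the other members, *Lhx1* at 49.2 against 0, *Ebf3* at 276 against 14.6 and *Rspo2*, an R-spondin, at 764 against 17.7. *Rerg* stood at 3.8 CPM in the *Reln*-high members and 367 in the others, and *Grik4* at 71.9 and 482, whereas *Synpr* stood at 340.5 and 639 and *Stat3* at 195 and 220.4. Of other Cajal-Retzius genes, *Calb2* was lower in the *Reln*-high members with 15.1 against 74.7 CPM, and *Ndnf* stood at 17.02 against 0.26. These levels are pooled and rest mostly on the 12 and 14 *Reln*-high nuclei of the Dnmt1 KO libraries. *Trp73* was found in 4 of 12, 5 of 14, 1 of 2 and 0 of 3 *Reln*-high nuclei of the libraries.

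Lists of genes of other cell types differed in their level. Over the listed genes, of which *Olig1*, *Olig2* and *Flt1* were held down by the rule, choroid plexus summed to 1.16 to 21.2 CPM, endothelium to 5.95 to 8.89, meninges to 0 to 7.70 and oligodendrocyte precursors to 0 to 2.22. The 10 radial glia genes summed to 191, 110.4, 131 and 96.4 CPM, with 8 of the 9 outside the rule below the other nuclei in all 4 libraries. The rule had limited *Slc1a3* and cell-cycle transcripts in the members, so this order partly follows from the choice of nuclei. Against *Zbtb20*-high nuclei without *Prox1*, under the same limits, 1 of the 9 was higher and 1 lower in all 4 libraries. Against other excitatory nuclei 4 were higher and 0 lower. The 6 thalamus and habenula genes summed to 169.9, 136, 151 and 177 CPM against 124, 86.9, 76.8 and 68.7 in the other nuclei, nearly all of it from *Lhx9* and *Tcf7l2*, while *Gbx2* had no transcript. *Sst*, whose promoter drives Cre, had no transcript in any of the 263 nuclei, which again allows a share of up to 1.14%. The rule had left out nuclei with *Gad1* or *Gad2*, so this absence partly follows from the choice of nuclei. Even in inhibitory nuclei *Sst* was found in only 4.78%, 8.30%, 2.89% and 5.63%. In control 2, 1 nucleus held 5 *Csf1r* and 9 *Ptprc* transcripts, genes of microglia, and set the microglia sum of that library at 24.4 CPM against 1.70 to 4.11 in the others.

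The share of retained nuclei that were Prox1+ Zbtb20+ was 1.38% in Dnmt1 KO 1 (78 of 5640, exact Clopper-Pearson 95% interval 1.09 to 1.72), 1.04% in Dnmt1 KO 2 (125 of 12064, 0.863 to 1.23), 0.383% in control 1 (27 of 7047, 0.253 to 0.557) and 0.673% in control 2 (33 of 4905, 0.464 to 0.944). Both Dnmt1 KO libraries were above both controls. The intervals cover counting error only. The means were 1.21% ± 0.245 and 0.528% ± 0.205 (SD, n = 2 libraries each), a difference of 0.682 percentage points or a ratio of 2.29. The difference was 0.387 points with thresholds of 5 *Prox1* and 20 *Zbtb20* transcripts and 1.08 points with thresholds of 2 and 5. With 2 libraries against 2 the exact permutation test, two-sided, gave p = 0.333, the smallest that this design allows, so the test could not have called any difference.

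The share of members among members and *Zbtb20*-high nuclei without *Prox1* together, in which the amount of *Zbtb20*-rich tissue enters both counts, was 6.18%, 5.70%, 3.10% and 4.08%. The means were 5.94% ± 0.340 and 3.59% ± 0.693 (SD, n = 2 each, exact permutation p = 0.333). The 148 *Zbtb20*-high nuclei with 2 and the 305 with 1 *Prox1* transcript were in neither count. The *Zbtb20*-high nuclei without *Prox1* were themselves 21%, 17.1%, 12.0% and 15.8% of the libraries (19.1% ± 2.72 and 13.9% ± 2.71, SD, n = 2), and also higher in both Dnmt1 KO libraries. This order did not hold with a minimum of 5 *Zbtb20* transcripts, where control 2 (23.28%) lay above Dnmt1 KO 2 (22.99%). Nor did it hold with a *Neurod1* transcript required (6.46% in control 2 and 5.44% in Dnmt1 KO 2). For the share of members among members and *Zbtb20*-high nuclei without *Prox1*, the ratio between genotypes was 1.65. The part of the amount of *Zbtb20*-rich tissue in the difference was not tested. Before the exclusions the share passing both thresholds was 4.80%, 4.43%, 2.88% and 2.90%, again with both Dnmt1 KO libraries higher. Counting only members with a *Neurod1* transcript, the share of retained nuclei was 0.621%, 0.605%, 0.255% and 0.469%, a ratio of 1.69, and the 2 genotypes lay closer, with a difference of 0.251 percentage points.

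**Figure D4:**
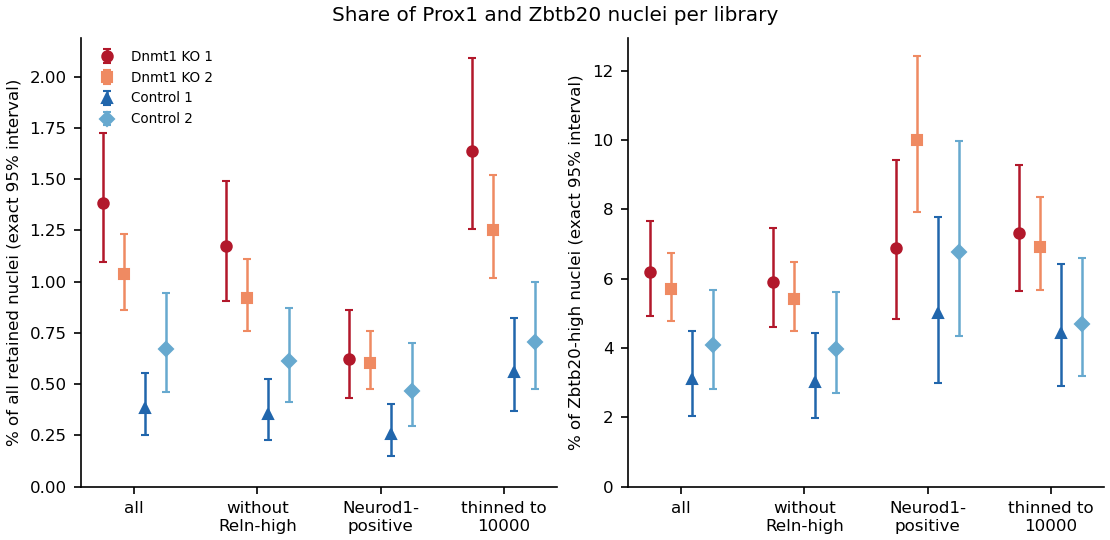
Share of Prox1+ Zbtb20+ nuclei per library among all retained nuclei (left, percent) and among *Zbtb20*-high nuclei (right, percent), with exact 95% binomial intervals. The settings are all members, without *Reln*-high nuclei, with a *Neurod1* transcript (with or without *Eomes*) and after thinning to 10000 transcripts. Both Dnmt1 KO libraries lie above both controls in all 4 settings of each panel, by least in the *Neurod1*-positive nuclei. The intervals of Dnmt1 KO 2 and control 2 overlap for all members as well.

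*Dnmt1* (chr9:20817945-20871184, minus strand), the maintenance DNA methyltransferase, was at 36.5, 39.5, 33.3 and 40.6 CPM in the Prox1+ Zbtb20+ nuclei, from 43, 77, 15 and 35 transcripts. The libraries of the genotypes overlapped, with a log2 fold change of 0.05 ± 0.28 (Dnmt1 KO against control, SE; edgeR adjusted p = 0.997). No difference in the targeted gene was detected in these nuclei. With this SE, from 15 to 77 transcripts per library, the test could not have called a small one. According to the paper, the loxP sites flank only part of *Dnmt1*. The counts here cover the whole gene, so they cannot show whether it was deleted. The level in the other retained nuclei was 56.4 CPM, and it was above that of the members in every library. In sets under the same exclusions it was closer, with 41.5 CPM in *Zbtb20*-high nuclei without *Prox1* and 45.7 in other excitatory nuclei. The members were higher in 1 library in either comparison. Of 7 tested DNA methylation genes, 4 had positive and 3 negative log2 fold changes, with a median of 0.05.

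Across the genome, 8397 genes were tested between genotypes in the summed counts of the Prox1+ Zbtb20+ nuclei, and edgeR's quasi-likelihood test with genotype as the only term called 0 (0.0%) at an adjusted p of 0.05, with a smallest adjusted p of 0.349. At an unadjusted p of 0.05 there were 535 (6.37%), 266 with a positive (3.17%) and 269 with a negative (3.2%) log2 fold change. DESeq2 called 6 genes (0.0715%), which were *Abtb3* and *Cpne9* lower and *Cdh13*, *Tshz2*, *Palld* and *Erbb4* higher in Dnmt1 KO. In 35.4% of the genes no library of either genotype lay within the range of the other, with 17.7% in each direction. For 2 libraries against 2 without any difference, the probability of no overlap is 0.333, so this share is near that value. The count depended on single libraries: 134 genes were called without Dnmt1 KO 1, 161 without Dnmt1 KO 2, 13 without control 1 and 0 without control 2, where the library left alone in its group is assumed to vary like the others. In *Neurod1*-positive members 1 of 6913 genes (0.0145%), *Abtb3*, was called.

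The genes with the smallest p and no overlap are given with their libraries. *Palld* (chr8:61964458-62355796, minus strand), the actin-bundling protein palladin, stood at 202, 140, 53.3 and 34.8 CPM, a log2 fold change of 2.02 ± 0.30 (edgeR adjusted p = 0.349). *Ebf3*, a Cajal-Retzius gene, stood at 64.6, 57.5, 13.3 and 10.5 CPM (log2 fold change 2.41 ± 0.33, adjusted p = 0.349), and *Rspo2* at 196, 119, 20.002 and 1.16 (4.28 ± 0.70, adjusted p = 0.369). In all 3 both Dnmt1 KO libraries were above both controls. Of the 76 *Ebf3* transcripts of Dnmt1 KO 1, 46 came from 1 nucleus, and 7 nuclei held the gene. The *Reln*-high nuclei held 71.9% of the *Ebf3*, 85.4% of the *Rspo2* and 28.5% of the *Palld* transcripts, and *Palld* stood at 278 CPM in *Eomes*-only and 13.5 in *Neurod1*-only nuclei. It was highest, with 352 CPM, in nuclei with neither *Eomes* nor *Neurod1*, which made up 8.97%, 16%, 3.70% and 6.06% of the members. Without the *Reln*-high nuclei the log2 fold change was 2.72 for *Rspo2* and 1.77 for *Palld*, and *Ebf3* was too low to be tested. *Ebf3* also turned to -0.46 with thresholds of 2 *Prox1* and 5 *Zbtb20* transcripts. In *Neurod1*-positive members it was 3.00 for *Ebf3*, 4.51 for *Rspo2* and 1.18 for *Palld*. The part of the *Reln*-high nuclei, the *Eomes*-only nuclei and those with neither transcript in these values was not tested beyond this.

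*Dlgap2*, a postsynaptic scaffold gene, stood at 671, 436, 233 and 223 CPM (log2 fold change 1.30 ± 0.25, edgeR adjusted p = 0.573), and *Pcdh19*, a protocadherin on the X chromosome, at 62.9, 61.6, 17.8 and 11.6 (2.17 ± 0.33, adjusted p = 0.349). Both groups of libraries were narrow in *Pcdh19*, which did not follow the sex of the libraries. *Cobll1*, *Vat1l*, *Tshz2* and the noncoding *Gm29521* completed the higher genes with log2 fold changes of 1.52 to 3.40, the *Reln*-high nuclei holding 52.3% of the *Cobll1*, 57.1% of the *Tshz2* and 32.2% of the *Vat1l* transcripts, together with *Samd3*, which had 18 and 37 transcripts in the Dnmt1 KO libraries, all in *Reln*-high nuclei, and 0 in both controls. *Gm29521* had a log2 fold change of 1.52 in the members and of 1.57 in the other retained nuclei, so it differed as much outside the members. *Rspo2* in control 2 rested on 1 transcript.

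Among the lower genes, *Cpne9* (chr6:113259076-113283068, plus strand), a calcium-dependent phospholipid-binding protein of neurons, stood at 7.65, 13.9, 48.9 and 89.4 CPM, with 2, 14, 6 and 10 nuclei holding it (log2 fold change -2.63 ± 0.42, edgeR adjusted p = 0.349). It was low in both Dnmt1 KO libraries, and no *Cpne9* transcript lay in a *Reln*-high nucleus. *Sema5a* (chr15:32244919-32696487, plus strand), whose protein limits dendrite and synapse number of granule cells, stood at 648, 805, 1607 and 1411 CPM (-1.02 ± 0.22, adjusted p = 0.620), and *Plxna4* (chr6:32121203-32565193, minus strand), a semaphorin receptor, at 669, 835, 1680.2 and 1470.1 (-1.04 ± 0.22, adjusted p = 0.620). Both Dnmt1 KO libraries lay well below both controls in either gene. In *Neurod1*-positive members the log2 fold change was -2.35 for *Cpne9*, -1.16 for *Plxna4* and -0.60 for *Sema5a*. *Cyp26b1*, the retinoic acid hydroxylase, stood at 8.50, 6.16, 26.7 and 31.4 CPM (-1.99 ± 0.40, adjusted p = 0.620) and *Syt2*, a synaptotagmin gene that overlaps *Ppp1r12b*, at 5.10, 12.3, 35.6 and 51.1 (-2.22 ± 0.46, adjusted p = 0.620).

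Single nuclei held most of the *Abtb3* transcripts of the controls. The gene stood at 5.10, 14.4, 62.2 and 91.7 CPM (log2 fold change -2.87 ± 0.45, edgeR adjusted p = 0.349), but 67 of its 79 transcripts in control 2 and 20 of 28 in control 1 came from 1 nucleus each. *Cmss1*, which overlaps *Filip1l*, had a log2 fold change of -1.14 in the members and of -1.20 in the other retained nuclei, so it differed as much outside the members. *Gm5820*, a noncoding gene within *Fgf1*, stood at 28.0, 23.1, 75.6 and 83.6 CPM (-1.63 ± 0.26, adjusted p = 0.349). *Gm17057* and *3110039M20Rik*, both noncoding, were lower with -2.26 and -0.94.

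**Figure D5:**
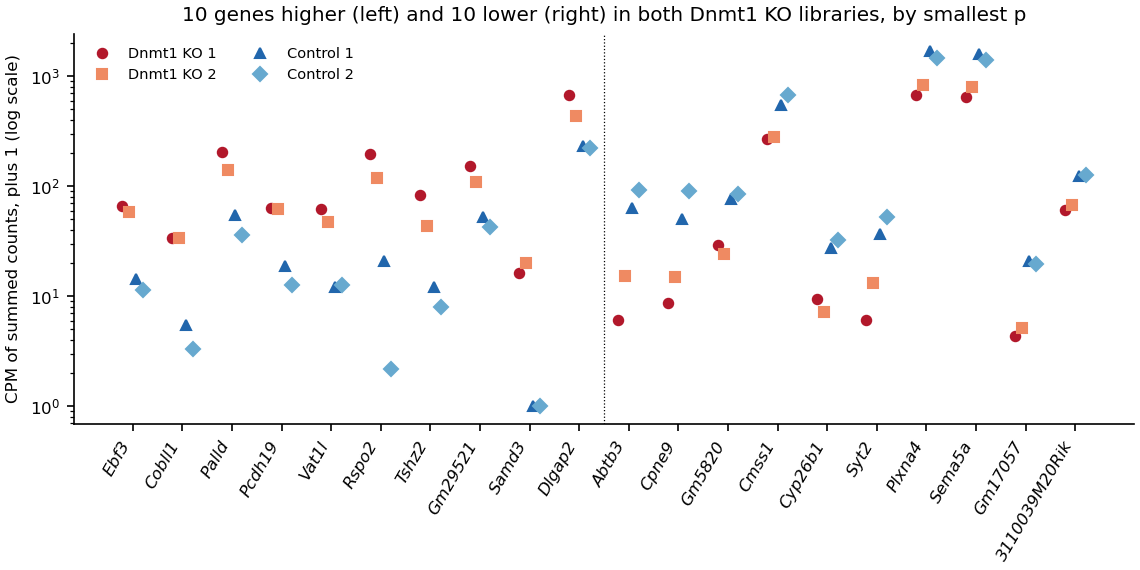
CPM plus 1 (log scale) in the summed counts of the Prox1+ Zbtb20+ nuclei for the 10 genes with the smallest unadjusted p and no overlap between genotypes in each direction, 1 symbol per library. The Dnmt1 KO libraries lie above the controls on the left and below on the right by choice of the genes, and none passed an adjusted p of 0.05 in edgeR with genotype as the only term.

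By gene list, the largest median was that of the cortical hem genes, of which all 4 tested had a positive log2 fold change, with a median of 2.42 beside 0.00053 over all genes tested. *Lmx1a*, the LIM homeodomain factor of the hem, stood at 71.4, 36.5, 13.3 and 0 CPM (3.45 ± 0.89, edgeR adjusted p = 0.624) and *Rspo3* at 232, 177, 129 and 38.3 (1.40 ± 0.47, adjusted p = 0.764), while *Wnt5a* overlapped between genotypes with 0.30. The counts of listed genes without overlap given here are to be read beside the 17.7% of all genes in each direction. The 6 tested Cajal-Retzius genes had a median of 1.55, with 3 not overlapping and higher (*Reln*, *Trp73*, *Ebf3*) and 2 with a negative log2 fold change and overlap (*Calb2* with -1.18 and *Nhlh2* with -0.41). *Reln* stood at 1014, 1049, 482 and 72.0 CPM (1.96 ± 0.70, adjusted p = 0.764). *Rspo3* went to 0.59 without the *Reln*-high nuclei and to 0.16 in *Neurod1*-positive members, while *Lmx1a* was at 4.11 and 2.70. All *Lmx1a* values rest on at most 6 transcripts in 3 nuclei of control 1 and 0 in control 2. The summed level of the hem genes was 716, 432, 251 and 179 CPM in the members and 322, 221, 163 and 168 in the other nuclei, higher in Dnmt1 KO in both.

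Of 11 tested Wnt response genes 7 had a positive log2 fold change, with a median of 0.46, and 5 did not overlap and were higher in Dnmt1 KO (*Lef1*, *Axin2*, *Znrf3*, *Rnf43*, *Fzd3*) against 1 lower (*Ctnnb1*). *Lef1* had the smallest p with 0.84 ± 0.23 (edgeR adjusted p = 0.671), and *Axin2* stood at 82.4, 71.4, 53.3 and 48.8 CPM (0.62 ± 0.24, adjusted p = 0.783). In *Neurod1*-positive members *Lef1* was at 0.60, *Axin2* at 0.31 and *Znrf3* at -0.14. Of 22 tested axon guidance genes 15 had a positive log2 fold change, with a median of 0.36, and 8 did not overlap and were higher, among them *Sema6a* (1.15 ± 0.26, adjusted p = 0.624), *Slit2* (1.04 ± 0.25, adjusted p = 0.624) and *Dcc* (1.10 ± 0.38, adjusted p = 0.764), against 3 lower (*Plxna2*, *Plxna4*, *Nrp2*), the latter a share near the 17.7% of all genes. *Dcc* and *Slit2* went to 0.52 and 0.51 in *Neurod1*-positive members. *Slc12a2*, the chloride importer NKCC1 of immature neurons, stood at 201, 139, 91.1 and 66.2 CPM (1.16 ± 0.27, adjusted p = 0.624), with a log2 fold change of 0.99 in *Neurod1*-positive members. It belongs to the GABA receptor and chloride transporter genes, of which 2 of 6 tested had a positive and 4 a negative log2 fold change, with a median of -0.10 and 1 without overlap.

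Of 7 tested granule cell genes outside the rule, 4 had a negative log2 fold change and 3 a positive one, with a median of -0.18, and 3 did not overlap and were lower (*Neurod1*, *Bhlhe22*, *Sema5a*), beside 17.7% of all genes. *Prox1*, which was in the rule, differed by -0.09 ± 0.19. *Neurod1* differed by -0.40 ± 0.22 (edgeR adjusted p = 0.860). Of 7 tested upper-layer genes 5 had a negative log2 fold change with a median of -0.67, and 4 did not overlap and were lower against 2 higher, among the lower *Pou3f2* (-1.21 ± 0.48, adjusted p = 0.783). *Sox11*, a factor of newborn neurons, stood at 263, 273, 367 and 487 CPM (-0.65 ± 0.21, adjusted p = 0.756) and *Dab1*, the intracellular reelin adaptor, at 913, 1792, 2107 and 3092 (-0.91 ± 0.36, adjusted p = 0.783). Glutamate receptor genes had a median of -0.30, with 4 of 17 lower without overlap, a share near the 17.7% of all genes, and the transcription factor list a median of -0.05. No gene of any list passed an adjusted p of 0.05 in this test.

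The difference between genotypes was then compared between the Prox1+ Zbtb20+ nuclei and the other retained nuclei of the same libraries in an interaction test. It called 184 of 19050 genes (0.966%), of which 80 were relatively higher and 104 relatively lower in the members of Dnmt1 KO, and 1045 (5.49%) at an unadjusted p of 0.05. Against the *Zbtb20*-high nuclei without *Prox1* edgeR called 0 of 14502 genes (0.0%, smallest adjusted p 0.0586, 5.72% at an unadjusted p of 0.05), and against other excitatory nuclei 0 of 14258 (0.0%, smallest adjusted p 0.0868, 4.64%). The calls therefore depended on which nuclei served as the comparison. They also depended on the test. The interaction test shares its spread between the members and the far larger sums of the other nuclei, but the part of this in the calls was not tested. With limma on each library's own log2 ratio of members to other nuclei, 0 of 19050 genes were called (0.0%, smallest adjusted p 0.651, 1366 or 7.17% at an unadjusted p of 0.05). The median SE of the 184 calls was 0.33 in the interaction test and 0.79 from the library ratios. In 144 of the 184 genes the library ratios of the genotypes did not overlap, a larger share than the 35.9% of all genes tested. The 184 had been called for a difference in these same counts. With 2 libraries per genotype the 0 does not show that the genes did not differ. The p-values of the interaction test are to be read with caution, given its smaller median SE for the 184 calls. They also numbered 114 without Dnmt1 KO 1, 121 without control 2 and 91 in *Neurod1*-positive members. *Sox2ot* had the smallest p in the interaction test and stood at 558, 377, 127 and 15.1 CPM in the members and at 458, 790, 1312 and 479 in the other nuclei (a difference of 3.89 ± 1.05 between the log2 library ratios, SE from the libraries). *Ror1*, a Wnt5a receptor, stood at 37.4, 56.5, 73.3 and 113 CPM in the members and at 18.4, 70.5, 11 and 9.93 in the others (-2.66 ± 0.78), where Dnmt1 KO 2 alone was high in the other nuclei. *Cdh13*, an adhesion molecule, stood at 347, 485, 71.1 and 166 in the members and at 1447 to 2030 CPM in the others (2.06 ± 0.75).

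Many of these calls rested on 1 nucleus. In 43 of the 184 genes, a single nucleus held at least 50% of the members' transcripts in the library where the gene was highest, and in 20 of these 43 it was the same nucleus of control 2, the one with *Csf1r* and *Ptprc*. That nucleus held all 53 *Rasgrp3*, all 41 *Mertk* and all 30 *Fli1* transcripts of the members of control 2, and 57 of 65 of *Lrmda*. In the members of Dnmt1 KO 2, 845 of 1028 *Dpp10* transcripts lay in 1 nucleus. *Cpne9*, in contrast, was held by 10 nuclei of control 2 with at most 19 of its 77 transcripts in 1, and stood at 1.30 to 2.51 CPM in the other retained nuclei.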

How the data were processed

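Nuclei of E16.5 medial cortex were sequenced in 2 Dnmt1 KO and 2 control libraries, grouped here by sample title. For each library the authors deposited raw counts, in which every unique molecular identifier is 1 transcript of a gene in a barcode. These come from the Trailmaker pipeline (genome GRCm39), without filtering or normalization, beside tables of totals for each barcode. The submitters' processing notes further name R 4.4.1 and Seurat 5.0.1.9001. The counting of strand and of intronic reads was not given in the sources used here, so overlapping genes may share reads; 45 of 317 named or listed genes overlap another protein-coding gene. Positions came from GENCODE vM39, matched by identifier (56323 of 56884 genes).

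Counts were summed per library over the selected nuclei, and nuclei were not used as replicates. Levels are counts per 1000000 of these sums, with 5 CPM added to both sides of a ratio. Genotypes were compared with edgeR 4.0.16 (R 4.3.3; TMM, filterByExpr, quasi-likelihood test, Benjamini-Hochberg adjustment over all genes tested), with DESeq2 1.42.0 as an alternative; the interaction test had library as a block, and limma 3.58.1 was run on the log2 ratio of members to other nuclei in each library (prior count 2). Shares were compared with a two-sided exact permutation test (scipy 1.17.1). Doublets were called with scrublet in scanpy 1.11.5 at an expected rate of 5%. Scripts were tested on simulated data. The members, the 25 gene lists and the rules were chosen with earlier results of these data known. Named genes were those of the lists, the genes with the largest and smallest ratios to other nuclei, and the 10 genes per direction with the smallest p and no overlap between genotypes; genes called in the interaction test or under one alternative, genes carried by 1 nucleus, and the genes that separate the *Eomes* and *Neurod1* subsets or mark *Reln*-high nuclei were named after their values were seen. For 1 listed gene the values are not reported here. Depth sets the precision: 27 and 33 members in the controls, from 1177072, 1947005, 449945 and 861187 transcripts summed over the members of each library.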

Additional observations from a re-analysis of the deposited data

Results flagged for a closer look

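A difference between genotypes that departed from that of the other retained nuclei was found for 184 genes in the interaction test, 43 of them with at least 50% of the transcripts of 1 library in 1 nucleus. Among the genes named by their genotype difference, the interaction on the log2 scale was positive for *Rspo2* (3.37), *Tshz2* (2.87), *Cobll1* (2.83), *Ebf3* (1.90), *Pcdh19* (1.69), *Vat1l* (1.66), *Palld* (1.5) and *Dlgap2* (1.33), so that these stood relatively higher in the Prox1+ Zbtb20+ nuclei of Dnmt1 KO. It was negative for *Cyp26b1* (-3.41), *Cpne9* (-2.87), *Abtb3* (-2.64), *Gm5820* (-2.38) and *Sema5a* (-0.83). These genes had been chosen by the genotype difference in the same member counts, so the sign and size of the interaction partly follow from that choice. Each passed an adjusted p of 0.05 in edgeR, whereas no gene passed it when *Zbtb20*-high nuclei without *Prox1* or other excitatory nuclei took the place of the other retained nuclei, where 830 (5.72%) and 662 (4.64%) genes had an unadjusted p under 0.05. With limma on the log2 ratio of each library none of them passed, and 1366 genes (7.17%) had an unadjusted p under 0.05.

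These genes differed in how many nuclei carried them. The libraries held 78, 125, 27 and 33 members, so the numbers of nuclei are to be read against these. *Cobll1* was held by 13 and 19 nuclei of the Dnmt1 KO libraries and by 2 and 1 of the controls, with 52.3% of its transcripts in *Reln*-high nuclei. *Pcdh19* was held by 19, 42, 4 and 4 nuclei and *Palld* by 27, 50, 8 and 10. *Sema5a*, by contrast, was found in 40, 83, 19 and 24 nuclei, the broadest base among the genes with a negative interaction named here, and *Dlgap2* in 40, 70, 13 and 18.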

How the results depend on the processing

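The share of Prox1+ Zbtb20+ nuclei was higher in Dnmt1 KO under every alternative tried, with differences of 0.508 to 0.855 percentage points when 1 library was left out, 0.387 with stricter and 1.08 with looser thresholds, 0.768 with the filter on mapped reads, 0.811 after thinning to 10000 transcripts and 0.564 without *Reln*-high nuclei. Among members and *Zbtb20*-high nuclei without *Prox1* together the difference was 1.86 to 2.84 points when 1 library was left out. No share test could pass its threshold. The count of genes called between genotypes was 0 with RLE size factors, with batch as a covariate, with other thresholds, without doublets, with the mapped-reads filter and without *Reln*-high nuclei; it was 178 with no filter on low counts, 6 with DESeq2 and 1 (*Abtb3*, of 6913 tested, 0.0145%) in *Neurod1*-positive members, and 0 to 161 when 1 library was left out. The interaction calls numbered 114 to 265 when 1 library was left out, 142 with no filter, 159 without *Reln*-high nuclei, 91 in *Neurod1*-positive members, and 0 against *Zbtb20*-high nuclei without *Prox1*, against other excitatory nuclei and with limma on the log2 ratio of each library (1366 at an unadjusted p of 0.05); the cause was not tested. The replicate numbers gave 2 pairs, with a correlation of 0.111 between the deviations of same-numbered libraries over 8397 genes. With the replicate number as a block 5 genes were called (*Abtb3*, *Cpne9*, *Cdh13*, *Rspo2*, *Palld*) and 169 in the interaction test. Of 372 log2 fold changes of 27 genes under the alternatives, 290 kept direction and side of the threshold, 69 kept direction and passed it, and 13 turned: *Ebf3* (-0.46 with looser thresholds), *Dnmt1* (-0.016 stricter, -0.11 looser, -0.0066 in *Neurod1*-positive members, -0.017 without Dnmt1 KO 2, -0.052 without control 1, and up to 0.23 when 1 library was left out), *Prox1* (0.047 looser), *Neurod1* (0.058 with the mapped-reads filter) and *Eomes* (0.75 stricter, 0.00042 without doublets, 0.024 without *Reln*-high nuclei, 0.25 without Dnmt1 KO 2, 0.0063 without control 2, and down to -0.42 when 1 library was left out). The alternatives without *Reln*-high nuclei, in *Neurod1*-positive members and with limma were added after seeing the data. With 27 and 33 members in the controls, genes at a few CPM rest on single transcripts, and control 2 is the only library of batch 2, so batch and that library cannot be told apart.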
